A study of Mus musculus with 12 samples.

Results

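The 37 genes described here encode the enzymes and transporters of glycolysis and a core of the transcriptional response to low oxygen. They were chosen by name, from glucose entry to lactate export and from the oxygen sensors to their secreted targets. Earlier results of these data were known when they were chosen, so their counts beside those of all genes are descriptive. All 37 were found among the 16335 genes measured. Their levels were followed in 12 mouse sarcoma tumors under arginine depletion, chloroquine, or both.

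The tumors came from BVMA01R, a murine sarcoma line of genotype Myf5-Cre;p53-/-;Ass1-/-, and are labelled female and C57BL/6J. They fall into 4 labelled groups with 3 libraries in each: no treatment (called untreated here), chloroquine (CQ in the labels, a drug that keeps lysosomes from acidifying), ADI-PEG20 (a pegylated arginine deiminase, which breaks down arginine outside cells), and ADI-PEG20 with chloroquine (called both drugs). Every group, the untreated one included, carries the same deletions in 1 line, in which Cre was driven from Myf5, a gene of the muscle lineage, while host cells in a tumor keep intact copies. Whether the libraries of a group came from separate animals is not in the labels, so p-values measure only the spread between these samples, which may be technical, and dose, duration and age are not given in the sources used here.

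Glycolysis turns glucose into pyruvate, and lactate dehydrogenase with the lactate transporters lets the flow continue when mitochondria do not take the pyruvate up. When oxygen is scarce the prolyl hydroxylases Egln1 and Egln3 slow down, the alpha subunit of the hypoxia-inducible factor (HIF, here Hif1a) is no longer degraded, and the factor binds a short core motif to induce most of the genes below. Fast-growing tumors are known for high glycolysis and for poorly perfused zones in which this response runs. Neither oxygen nor lactate was measured in the data used here, and a transcript level of Hif1a does not report the stability of its protein.

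The core motif was searched for in the form ACGTG only, on both strands of RefSeq promoters of build GRCm38.p6. Each window ran from 250 bases before to 50 after the start site. A window was matched for 33 of the 37 members, and none for Slc2a3, Ndrg1, Plod2 and Bnip3l. At least 1 match lay in a window of 23 of these 33 genes (69.7%), against 3210 of 11296 genes of the table that have a window (28.42%). Of the 48 member windows 54.17% held the motif. The share was 24.41% of the 14407 windows of genes in the table and 19.62% of all 32851 windows of that length. A gene can have several windows, which raises its share per gene, and windows can overlap and hold the same match, as for Aldoa. Members were chosen as genes of glycolysis and the hypoxia response, so these shares describe that choice and test nothing. Member windows were also richer in G and C, with a median of 64.0% against 60.33% for genes in the table. GCGTG, which differs from ACGTG at the first base and was not counted as a match, was in 54.17% of member windows. It was in 48.08% of the windows of genes in the table. Whether the factor binds either form in these tumors was not tested. The palindrome CACGTG, which other factors also bind, contains ACGTG on both strands and was counted once. It occurred in 5 member genes.

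The 250 bases before the start site are printed for 6 members with a match, chosen to span the roles that the results below turn on: glucose uptake, an enzyme of the payoff phase, lactate formation, mitophagy and collagen hydroxylation. They run 5′ to 3′ on the strand of the gene, and capitals mark ACGTG, its reverse complement CACGT, or CACGTG where both coincide. The Slc2a1 window is chr4:119108495-119108744 (plus strand), Pgk1 chrX:106186850-106187099 (plus), Ldha chr7:46845554-46845803 (plus), Bnip3 chr7:138909507-138909756 (minus), P4ha1 chr10:59323046-59323295 (plus) and P4ha2 chr11:54100674-54100923 (plus).
Slc2a1: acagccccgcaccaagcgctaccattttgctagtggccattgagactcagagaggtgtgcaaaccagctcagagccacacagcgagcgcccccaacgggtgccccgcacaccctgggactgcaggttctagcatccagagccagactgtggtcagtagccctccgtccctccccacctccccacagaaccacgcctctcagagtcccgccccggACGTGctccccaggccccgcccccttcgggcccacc
Pgk1: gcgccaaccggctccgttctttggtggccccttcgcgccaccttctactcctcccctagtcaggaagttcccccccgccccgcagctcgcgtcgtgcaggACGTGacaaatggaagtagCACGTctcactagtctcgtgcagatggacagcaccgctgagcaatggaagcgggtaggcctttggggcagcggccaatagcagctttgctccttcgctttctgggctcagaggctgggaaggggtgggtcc
Ldha: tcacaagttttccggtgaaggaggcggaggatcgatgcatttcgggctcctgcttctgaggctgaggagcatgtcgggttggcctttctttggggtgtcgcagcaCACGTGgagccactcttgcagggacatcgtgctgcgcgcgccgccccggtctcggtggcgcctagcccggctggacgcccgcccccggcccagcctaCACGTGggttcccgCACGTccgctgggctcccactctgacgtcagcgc
Bnip3: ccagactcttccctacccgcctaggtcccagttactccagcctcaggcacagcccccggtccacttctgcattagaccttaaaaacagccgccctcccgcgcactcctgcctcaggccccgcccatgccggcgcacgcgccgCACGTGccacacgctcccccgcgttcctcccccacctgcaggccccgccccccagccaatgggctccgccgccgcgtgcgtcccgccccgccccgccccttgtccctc
P4ha1: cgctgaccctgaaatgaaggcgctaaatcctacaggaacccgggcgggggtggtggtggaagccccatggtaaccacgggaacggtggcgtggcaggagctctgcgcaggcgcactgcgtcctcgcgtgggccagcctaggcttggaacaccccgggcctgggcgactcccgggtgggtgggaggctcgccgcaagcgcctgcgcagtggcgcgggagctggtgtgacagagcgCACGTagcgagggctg
P4ha2: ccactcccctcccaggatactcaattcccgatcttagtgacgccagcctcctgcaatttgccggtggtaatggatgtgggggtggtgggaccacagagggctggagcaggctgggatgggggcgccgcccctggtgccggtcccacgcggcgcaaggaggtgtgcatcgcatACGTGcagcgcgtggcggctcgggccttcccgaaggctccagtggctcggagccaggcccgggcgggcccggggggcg
Within these 250 bases Ldha holds 3 sites, 2 of them CACGTG, and Pgk1 holds 2 sites facing opposite ways. Slc2a1, P4ha1 and P4ha2 hold 1 match each outside a palindrome, and the single site of Bnip3 is CACGTG. A match describes these letters alone, and its absence from the other 10 windowed genes says nothing about the factor.

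**Figure D1:**
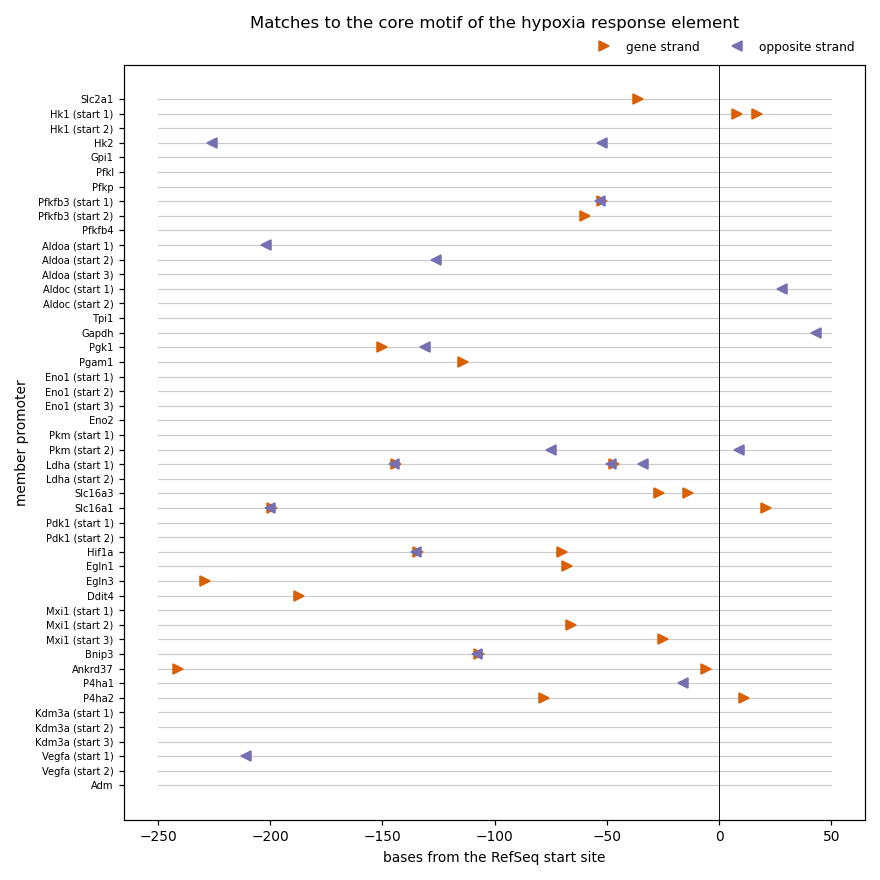
Positions of ACGTG on either strand in the 48 RefSeq promoter windows of 33 member genes, in bases from the start site (0), with 1 line per window. Triangles give the strand of the match, and 23 of the 33 genes have at least 1.

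The deposited values were log2 CPM (counts scaled to a common library size), from which whole reads were recovered, 15501998 to 28410940 per library. Members were covered by up to 47227 reads (Pkm), with the fewest for Aldoc (12 to 50 per library), Ankrd37 (23 to 124) and Adm (40 to 559). Ass1, the deleted enzyme that rebuilds arginine from citrulline, still gave 6.83 to 18.8 CPM (153 to 397 reads), and Trp53, the gene of p53, 13.0 to 26.8 CPM; reads per gene do not show the deleted part. All libraries held the mesenchymal marker Vim at 2089 to 3624 CPM and Myf5 at 12.2 to 54.3 CPM, while the myogenic factors Myod1 and Myog were at 0.759 and 0.480 CPM in untreated 1 and at 2.27 to 42.2 CPM elsewhere. Gm26917, an annotated non-coding RNA, took 22.76% of the reads of ADI-PEG20 1 and 16.41% of those of untreated 2 against 5.09% to 9.86% elsewhere. Summed markers of macrophages (10 of 10 detected, none at 0) were at 820.9 to 1031 CPM in untreated, 889.6 to 1222 in chloroquine, 1181 to 1652 in ADI-PEG20 and 1345 to 1747 CPM in tumors given both drugs. Mature muscle markers (17 of 18 in the table) spread between 259 and 2545 CPM without treatment and between 192 and 3234 CPM with ADI-PEG20. In bulk RNA fewer cells of a type and less RNA per cell cannot be told apart, and the part of these cells in the results below was not tested.

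The members were high in 2 of the 3 untreated tumors and lower nearly everywhere else. The highest of the 12 values lay in untreated 1 for 15 members and in untreated 2 for 16, together 31 of 37 (83.78%), against 4276 of all 16335 genes (26.18%). Untreated 3 held the highest value of no member. The lowest value lay in ADI-PEG20 1 for 12 members and in chloroquine 1 for 10, libraries that hold the lowest value of 21.57% and 6.979% of all genes. ADI-PEG20 1 stood apart at both ends, with the highest value of 19.49% of all genes as well. The median log2 CPM of the 37 members was 6.94, 7.06 and 6.34 in the untreated tumors and 6.20, 6.71 and 6.33 with chloroquine. It was 6.21, 6.00 and 6.29 with ADI-PEG20 and 6.24, 6.31 and 6.49 with both drugs. Untreated 3 thus sat inside the range of the treated tumors, and the 3 ADI-PEG20 tumors lay close together at the low end.

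**Figure D2:**
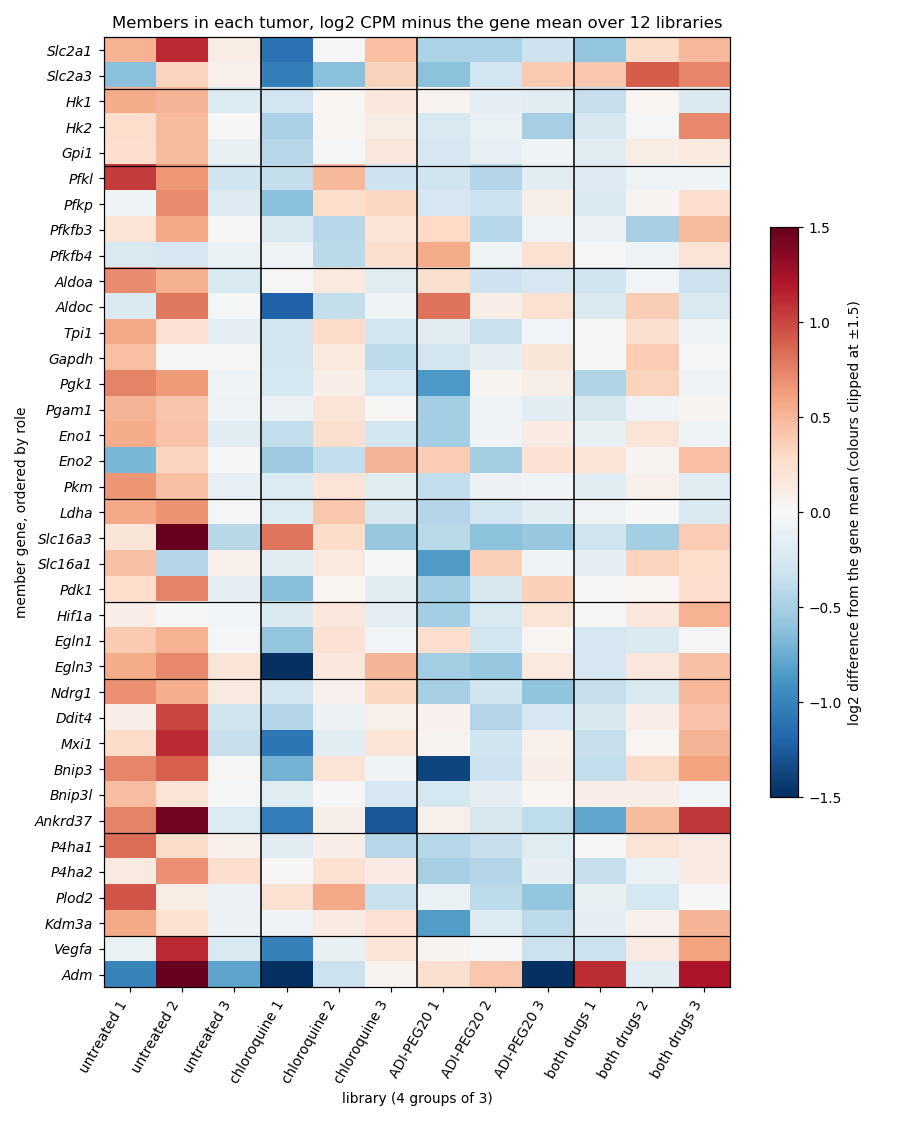
Each row is a member and each column a library, and colour gives log2 CPM minus the gene's own mean over the 12 libraries. Untreated 1 and untreated 2 hold the highest values of 15 and 16 of the 37 members, ADI-PEG20 1 the lowest of 12 and chloroquine 1 the lowest of 10.

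Untreated 1 and untreated 2 were both above all 9 treated tumors for 16 of the 37 members, among them Slc2a1, Hk1, Pkm, Pgk1, Ldha, Egln1, Egln3, Ndrg1 and P4ha1. This pair was picked after seeing that it held most of the highest member values. The share of all genes with this pattern was not counted, so the 16 cannot be set against it. As single libraries, which is another measure, untreated 1 held the highest value of 12.75% of all genes and untreated 2 that of 13.43%. Which of the pair held the highest value differed by gene. Untreated 1 led for the enzymes of the lower pathway (Aldoa, Tpi1, Gapdh, Pgk1, Pgam1, Eno1 and Pkm), for Hk1 and Pfkl, and for P4ha1, Plod2, Kdm3a, Ndrg1, Bnip3l and Slc16a1. Untreated 2 led for the glucose transporter Slc2a1, for Ldha and Slc16a3, for Gpi1, Pfkp, Pfkfb3 and Pdk1, and for Vegfa, Adm, Egln1, Egln3, Ddit4, Mxi1, Bnip3, Ankrd37 and P4ha2. The mean log2 CPM of 8 lower pathway enzymes (Aldoa to Pkm without Aldoc and Eno2, plus Ldha) was 9.49 in untreated 1, 9.31 in untreated 2 and 8.79 in untreated 3. Vegfa, the angiogenic growth factor, was at 237, 549 and 217 CPM in the same tumors. Among the treated tumors the highest enzyme means were 9.11 in chloroquine 2 and 9.04 in both drugs 2, whereas Vegfa was highest in both drugs 3, at 385 CPM, where the enzyme mean was 8.79.

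**Figure D3:**
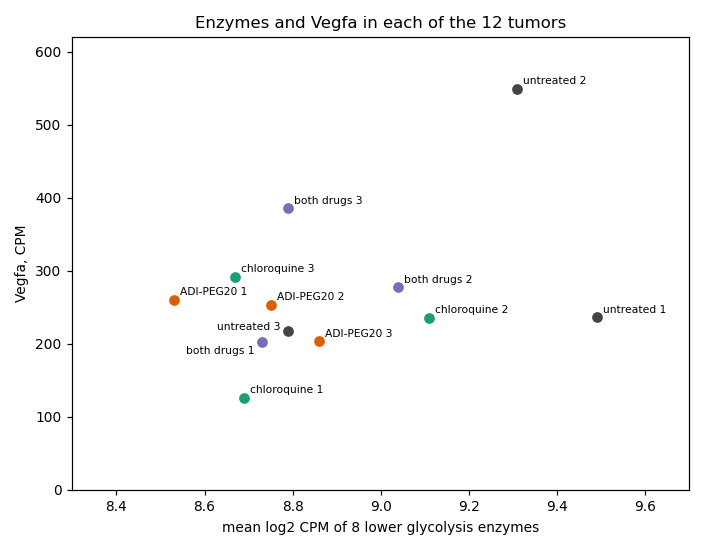
Mean log2 CPM of 8 lower glycolysis enzymes (x axis) against Vegfa in CPM (y axis) in each tumor, coloured by group. Untreated 1 has the highest enzyme mean, 9.49, with Vegfa at 237 CPM, while untreated 2 has Vegfa at 549 CPM.

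Each group was compared with the others in 1 limma fit over all genes and 12 libraries, two-sided, with Benjamini-Hochberg adjustment over 16335 genes and a threshold of 0.05. Of all genes 0 (0%) passed in each of the 8 contrasts, so 0 members passed, and every difference below is a value that did not pass. The comparisons of the 3 treatments with untreated tumors share the same 3 untreated libraries.

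With ADI-PEG20, 34 of the 37 members had a lower mean than in untreated tumors, where 51.3% of all genes did, and the median log2 difference was -0.44 against -0.01 over all genes. Some marker lists differed in the same contrast. Lower were 8 of 9 proliferation genes (median -0.38, with sums of 678 to 980.7 CPM in untreated and 531.8 to 743.7 CPM in ADI-PEG20 tumors). So were 6 of 6 erythroid genes (median -1.56) and 10 of 10 mitochondrial and RNA quality genes (median -0.21). Macrophage genes were higher for 9 of 10 (median 0.59), T cell genes for 9 of 9 (median 1.20) and adipocyte genes for 7 of 7 (median 1.30). The T cell genes were scarce, summing to 10.55 to 21.49 CPM in untreated and 27.59 to 31.85 CPM in ADI-PEG20 tumors. Adipocyte genes summed to 287.9 CPM in ADI-PEG20 1, 45.46 in ADI-PEG20 2 and 78.84 in ADI-PEG20 3, against 26.15 to 52.85 CPM in untreated. Other lists had closer or widely spread levels. The mean log2 CPM of endothelial genes was 5.33 in untreated and 5.38 in ADI-PEG20 tumors. For mesenchymal genes it was 10.32 and 10.39, and for neutrophil genes 1.31 and 1.28. For mature muscle genes it was 4.02 and 3.74, for myogenic genes 5.58 and 5.40, and for keratinocyte genes 0.98 and 1.75. The part of all these marker lists in the members' values was not tested. All 3 ADI-PEG20 tumors lay below all 3 untreated tumors for 9 members: the transporter Slc2a1, the hexokinase Hk2, Ldha, Egln3, Ndrg1 and all 4 hydroxylases and demethylases P4ha1, P4ha2, Plod2 and Kdm3a. The share of all genes that were separate and lower was 4.54%. Pfkfb4 was the single member separate in the other direction, a pattern found in 5.57% of genes. At an unadjusted p under 0.05, 15 members were lower and 0 higher, against 3.13% of all genes lower and 5.17% higher. That count was 14 with limma's voom, 6 with voom and library quality weights and 6 in the authors' deposited table. It was 8 without untreated 1, 7 without untreated 2, 23 without untreated 3, and 5 without both libraries rich in Gm26917, and the median went to -0.71 without untreated 3. The count of higher members was 1, in place of 0, with the replicate block and without ADI-PEG20 2, chloroquine 2 or chloroquine 3.

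With chloroquine alone, 36 of the 37 members had a lower mean than in untreated tumors (50.7% of all genes did), with a median log2 difference of -0.39 against -0.00 over all genes. The spread was wide, and the groups overlapped for all 37 members, while 3.72% of all genes were separate and lower and 3.69% separate and higher. At an unadjusted p under 0.05, 4 members were lower, P4ha1, Ankrd37, Bnip3l and Slc2a1, and 0 higher, against 1.33% and 2.06% of all genes. This count was 20 without untreated 3, 13 without chloroquine 2, 1 without untreated 2 or without chloroquine 1, and 0 without untreated 1. With voom it was 4, with quality weights 1, as in the authors' deposited table, and without both libraries rich in Gm26917 it was 2. The median was -0.60 without untreated 3.

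With both drugs, 31 of 37 had a lower mean than in untreated tumors (49.2% of all genes did), and the median log2 difference was -0.29 against 0.01 over all genes. P4ha2 and Egln1 were separate and lower (7.92% of all genes were) and Slc2a3 and Pfkfb4 separate and higher (7.46% of all genes). At an unadjusted p under 0.05, 5 members were lower, P4ha2, Aldoa, Ldha, Hk1 and Egln1, and 0 higher, against 3.95% and 4.7% of all genes. The count of lower members was 13 without untreated 3, 1 without untreated 1, 0 without untreated 2, 0 without both drugs 1, 2 without both drugs 3 and 0 without both libraries rich in Gm26917. With voom it was 5, with quantile normalization 3, and with quality weights 2, as in the authors' deposited table. The count of higher members was 2, with 0 lower, without untreated 2 and without both libraries rich in Gm26917. It was 1 with voom, with quality weights, with the replicate block, with only the groups compared and in the authors' deposited table. It was also 1 without chloroquine 1, chloroquine 3 or ADI-PEG20 3. The median was -0.46 without untreated 3, -0.14 without untreated 2 or without both libraries rich in Gm26917, and -0.15 without both drugs 1. It was -0.16 with quality weights and in the authors' deposited table.

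**Figure D4:**
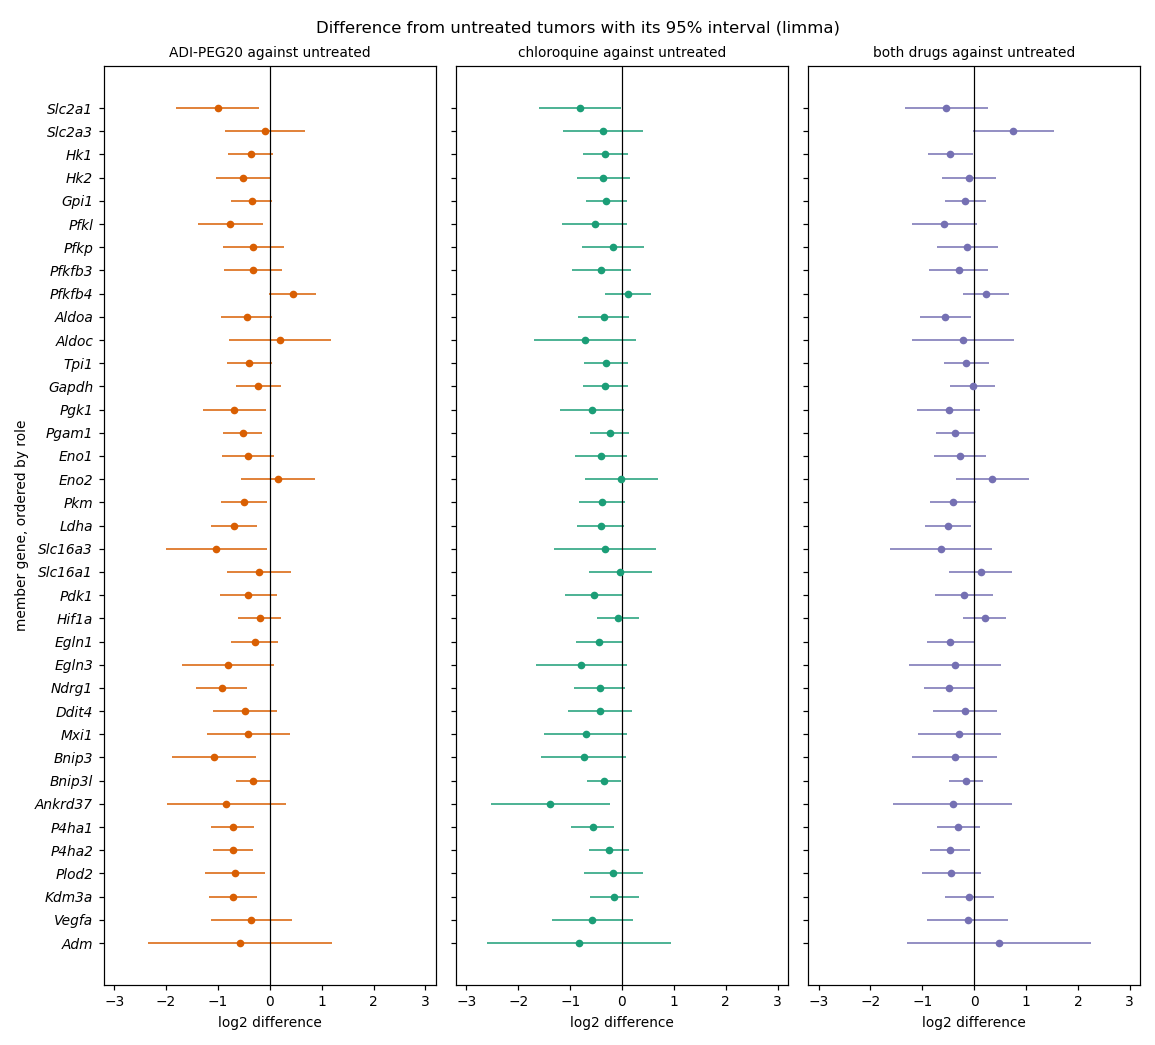
Log2 difference from untreated tumors for each member with its 95% interval from limma, in 3 panels by treatment that share the untreated libraries. Of the 37 points 34 lie below 0 with ADI-PEG20, 36 with chloroquine and 31 with both drugs, and 0 passed adjustment over all genes.

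Glucose entry is served by Slc2a1, the widespread basal transporter, and Slc2a3, a carrier of high affinity. Per length, Slc2a1 was the more abundant, with untreated means of 57.7 and 2.02 CPM per kb of exon. Slc2a1 (ENSMUSG00000028645, chr4:119108711-119137983) was at 186, 282 and 139 CPM in untreated, 60.1, 129 and 176 with chloroquine, 92.9, 92.7 and 105 with ADI-PEG20, and 85.4, 156 and 181 CPM with both drugs. The ADI-PEG20 tumors were all under the untreated ones and nearly equal to each other, and the other treated groups overlapped them. The log2 difference was -1.01 with ADI-PEG20 (SE 0.37, limma adjusted p = 0.524) and -0.81 with chloroquine (SE 0.37, limma adjusted p = 0.999). Slc2a3 took another course, at 9.55, 18.7 and 15.6 CPM in untreated tumors and 19.6, 27.8 and 24.6 CPM with both drugs. With either drug alone it was at 7.26 to 19.4 CPM. Thus the tumors given both drugs were the 3 highest of the 12, although both drugs 1 (19.6) was close to ADI-PEG20 3 (19.4). Their log2 difference was 0.76 from untreated (SE 0.36, limma adjusted p = 0.578), 0.85 from ADI-PEG20 (SE 0.36, limma adjusted p = 0.894) and 1.12 from chloroquine (SE 0.36, limma adjusted p = 0.546).

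Glucose is trapped by the hexokinases Hk1 and Hk2 and rearranged by the isomerase Gpi1. Hk2, the inducible form, was at 123, 142 and 102 CPM in untreated tumors and 87.6, 95.4 and 72.2 CPM with ADI-PEG20, with no overlap and a log2 difference of -0.52 (SE 0.24, limma adjusted p = 0.598). With both drugs it was at 86.6, 100.1 and 168 CPM, so that both drugs 3 held the highest value of all tumors. Hk1, the constitutive form, was at 155, 150 and 91.8 CPM in untreated tumors and 83.4, 108 and 91.3 CPM with both drugs, a log2 difference of -0.46 (SE 0.20, limma adjusted p = 0.559). Untreated 3 lay among the treated tumors for Hk1 and for Gpi1, which spanned 154 to 288 CPM in all.

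Phosphofructokinase commits sugar to glycolysis, and Pfkfb3 and Pfkfb4 make or remove its activator. Of the liver-type subunit Pfkl there were 194, 148 and 76.1 CPM in untreated tumors and 76.7, 69.1 and 84.4 CPM with ADI-PEG20, so untreated 3 fell within the ADI-PEG20 range. The platelet-type subunit Pfkp ranged from 33.4 to 83.9 CPM and Pfkfb3 from 41.7 to 87.5 CPM, each with its highest value in untreated 2. Pfkfb4, unlike most members, had higher means in every treated group, at 15.7, 15.5 and 17.2 CPM in untreated, 27.2, 17.7 and 21.6 with ADI-PEG20 and 18.1, 17.4 and 21.2 CPM with both drugs. Both treated groups lay above all untreated tumors, by as little as 17.4 against 17.2 CPM. The log2 difference was 0.44 with ADI-PEG20 (SE 0.21, limma adjusted p = 0.598) and 0.23 with both drugs (SE 0.21, limma adjusted p = 0.792).

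The steps from aldolase to pyruvate kinase held the most abundant members, and per length Pkm (untreated mean 307 CPM per kb of exon), Gapdh (241), Eno1 (237), Pgk1 (229) and Aldoa (217) led. The neural isoforms Eno2 (3.10 CPM per kb) and Aldoc (0.544) were scarce beside them. Pkm, the last enzyme, was at 1887, 1624 and 1100 CPM in untreated, 1040, 1363 and 1053 with chloroquine, 923, 1124 and 1148 with ADI-PEG20, and 1070, 1264 and 1052 CPM with both drugs. Untreated 1 and 2 stood above all treated tumors, and untreated 3 did not. The same held for Pgk1, the enzyme that forms the earliest ATP of the pathway, with 617, 572 and 350 CPM in untreated against 201 to 465 CPM in treated tumors. Pgam1, a phosphoglycerate mutase, was at 213, 199 and 142 CPM in untreated and 105, 145 and 133 CPM with ADI-PEG20, a log2 difference of -0.52 (SE 0.18, limma adjusted p = 0.519). The groups overlapped, since untreated 3 (142) was below ADI-PEG20 2 (145).

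Gapdh, often used as a reference gene, spanned 681 to 1217 CPM over the tumors, and its log2 difference from untreated was -0.22 with ADI-PEG20 (SE 0.20) and -0.32 with chloroquine (SE 0.20). It was -0.03 with both drugs (SE 0.20), and groups overlapped in all 3 comparisons. Aldoa, the aldolase of muscle and most tissues, was at 789, 697 and 411 CPM in untreated and 391, 467 and 390 CPM with both drugs, a log2 difference of -0.56 (SE 0.23, limma adjusted p = 0.540). Its highest treated value, 569 CPM, was in ADI-PEG20 1, the tumor with the most muscle marker RNA (3234 CPM summed), and untreated 1 had the next most (2545 CPM). Untreated 2 held 259 CPM of these markers with Aldoa at 697 CPM, and untreated 3 held 925.4 CPM with Aldoa at 411 CPM. The part of muscle in the Aldoa values was not tested. Eno2 and Aldoc were 2 of the 3 members with a mean above untreated in the ADI-PEG20 tumors, by 0.16 (SE 0.33) and 0.19 (SE 0.46), within the spread of their libraries.

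Lactate dehydrogenase A turns pyruvate into lactate. Ldha (ENSMUSG00000063229, chr7:46841475-46855627) was at 583, 626 and 384 CPM in untreated, 341, 519 and 334 with chloroquine, 291, 323 and 350 with ADI-PEG20, and 373, 393 and 339 CPM with both drugs. The ADI-PEG20 tumors lay under all untreated tumors, and with both drugs 1 tumor, at 393 CPM, was above untreated 3. Ldha differed from untreated by -0.70 with ADI-PEG20 (SE 0.21, limma adjusted p = 0.519), -0.50 with both drugs (SE 0.21, limma adjusted p = 0.546) and -0.41 with chloroquine (SE 0.21, limma adjusted p = 0.999). The lactate exporter Slc16a3 was at 66.1, 195 and 43.7 CPM in untreated and 44.0, 38.1 and 39.5 CPM with ADI-PEG20, with a difference of -1.03 (SE 0.46, limma adjusted p = 0.587) and overlapping groups. The importer and exporter Slc16a1 had its highest value, 53.9 CPM, in untreated 1 and its lowest, 22.1 CPM, in ADI-PEG20 1. Pdk1, a kinase that inhibits pyruvate dehydrogenase, was at 73.1, 102 and 55.2 CPM in untreated and 39.2, 62.1 and 54.2 CPM with chloroquine. These groups overlapped, with a log2 difference of -0.55 (SE 0.26, limma adjusted p = 0.999).

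In the oxygen sensing role the transcript of Hif1a itself was at 199.5, 186 and 182 CPM in untreated and 132, 160 and 215 CPM with ADI-PEG20. With both drugs it was at 183, 209 and 268 CPM, and the log2 difference from ADI-PEG20 was 0.39 (SE 0.19, limma adjusted p = 0.894). The hydroxylase Egln3, itself a HIF target, was at 104, 117 and 80.7 CPM in untreated and 49.1, 47.6 and 78.1 CPM with ADI-PEG20. These groups did not overlap, but ADI-PEG20 3 (78.1) was close to untreated 3 (80.7), and the log2 difference was -0.81 (SE 0.41, limma adjusted p = 0.608). Chloroquine 1 had the lowest Egln3 of all tumors, 24.4 CPM, while chloroquine 3 was at 100.4 CPM. Egln1, the main oxygen sensor, was at 152, 167 and 114.4 CPM in untreated and 97.6, 99.98 and 114.1 CPM with both drugs. All 3 treated tumors were lower, though both drugs 3 and untreated 3 were nearly equal, and the log2 difference was -0.46 (SE 0.21, limma adjusted p = 0.576).

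Ndrg1, a stress protein strongly induced by low oxygen, had the smallest p of all members with ADI-PEG20. Ndrg1 (ENSMUSG00000005125, chr15:66929318-66969640) was at 349, 316 and 238 CPM in untreated, 178, 226 and 269 with chloroquine, 154, 176 and 143 with ADI-PEG20, and 170, 186 and 307 CPM with both drugs. The ADI-PEG20 tumors and both drugs 1 were the 4 lowest, and 1 tumor of each other treated group lay above untreated 3. Ndrg1 differed from untreated by -0.92 with ADI-PEG20 (SE 0.23, unadjusted p = 0.00133, limma adjusted p = 0.481), and -0.43 with chloroquine (SE 0.23) and -0.48 with both drugs (SE 0.23). The mitophagy receptor Bnip3 was at 51.5, 58.1 and 31.6 CPM in untreated, 19.0, 35.7 and 29.8 with chloroquine, 11.99, 25.0 and 33.2 with ADI-PEG20, and between 24 and 47.3 CPM with both drugs. Its log2 difference with ADI-PEG20 was -1.08 (SE 0.38), but ADI-PEG20 3 overlapped untreated 3 and ADI-PEG20 1, the library rich in Gm26917, was the lowest of all.

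Its paralog Bnip3l was steadier, at 96.9, 81.0 and 69.1 CPM in untreated and 62.2, 70.5 and 59.4 CPM with chloroquine, a log2 difference of -0.35 (SE 0.15, limma adjusted p = 0.999). Ankrd37, a scarce ankyrin repeat protein, was at 4.56, 7.37 and 2.36 CPM in untreated and 1.34, 2.89 and 1.13 CPM with chloroquine, resting on 23 to 124 reads per library. Its log2 difference of -1.38 (SE 0.53, limma adjusted p = 0.999) came with an overlap between untreated 3 and chloroquine 2. Ddit4, a brake on mTOR signalling, and Mxi1, an antagonist of MYC, had their highest values, 112 and 66.9 CPM, in untreated 2. Untreated 3, at 45.1 and 24.04 CPM, lay below 7 of 9 treated tumors for Ddit4 and below 8 of 9 for Mxi1.

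The collagen hydroxylases and the demethylase were the role in which every member was separate with ADI-PEG20. P4ha1, a catalytic subunit of collagen prolyl hydroxylase (ENSMUSG00000019916, chr10:59323296-59373304), was at 197, 134 and 116 CPM in untreated, 98.0, 119 and 82.4 with chloroquine, 81.97, 86.8 and 97.8 with ADI-PEG20, and 108, 126 and 120 CPM with both drugs. Thus the tumors given both drugs stood above every ADI-PEG20 tumor and overlapped the untreated ones. The log2 difference from untreated was -0.71 with ADI-PEG20 (SE 0.19, limma adjusted p = 0.481), -0.56 with chloroquine (SE 0.19, limma adjusted p = 0.999) and -0.30 with both drugs (SE 0.19, limma adjusted p = 0.683). P4ha2, the other catalytic subunit (ENSMUSG00000018906, chr11:54100095-54131665), was at 81.3, 119 and 88.3 CPM in untreated and 73.7, 86.7 and 80.6 CPM with chloroquine. It was at 52.6, 54.7 and 67.4 CPM with ADI-PEG20 and 58.2, 69.2 and 81.1 CPM with both drugs. P4ha2 was the member for which untreated 3 exceeded all 9 treated tumors, and both groups given ADI-PEG20 lay under the 3 untreated ones, the nearest pair being both drugs 3 (81.1) and untreated 1 (81.3). The log2 difference was -0.71 with ADI-PEG20 (SE 0.18, limma adjusted p = 0.481) and -0.46 with both drugs (SE 0.18, limma adjusted p = 0.512).

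Plod2, which hydroxylates collagen lysines for crosslinking, was at 152, 85.0 and 74.0 CPM in untreated and 73.9, 60.3 and 53.0 CPM with ADI-PEG20. The groups were separate, with untreated 3 (74.02) and ADI-PEG20 1 (73.87) nearly equal, and the log2 difference was -0.67 (SE 0.27, limma adjusted p = 0.553). Kdm3a, a histone demethylase induced by HIF, was at 91.1, 71.6 and 57.8 CPM in untreated, 58.8, 66.7 and 70.9 with chloroquine, 34.2, 53.4 and 46.8 with ADI-PEG20, and 55.8, 64.1 and 87.2 CPM with both drugs. The ADI-PEG20 tumors were the 3 lowest of the 12. The log2 difference was -0.71 from untreated to ADI-PEG20 (SE 0.22, limma adjusted p = 0.519) and 0.62 from ADI-PEG20 to both drugs (SE 0.22, limma adjusted p = 0.894).

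**Figure D5:**
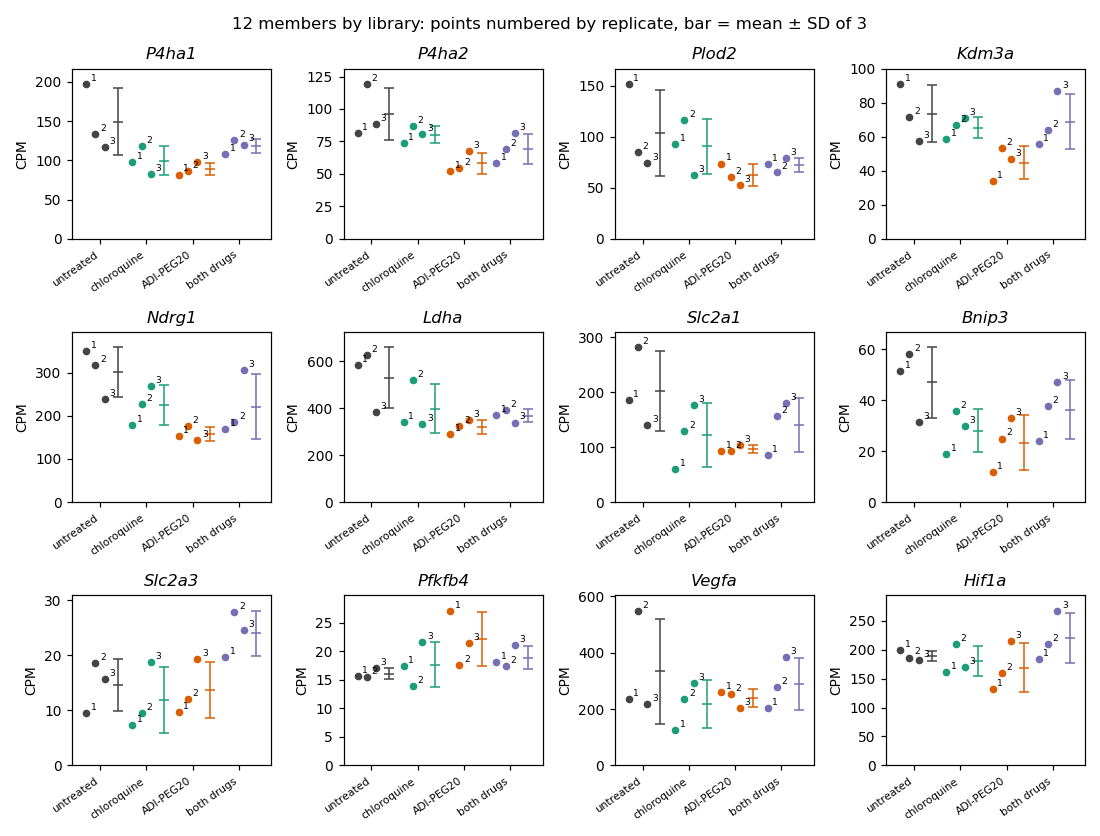
CPM of 12 members in each tumor by group, with points numbered by replicate and the mean ± SD of 3 beside them. The ADI-PEG20 points lie under all untreated points for P4ha1, P4ha2, Plod2, Kdm3a, Ndrg1, Ldha and Slc2a1, and the points of both drugs are the highest for Slc2a3.

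The secreted factors varied widely within groups. Vegfa was at 126, 235 and 292 CPM with chloroquine and 261, 253 and 203 CPM with ADI-PEG20, against 217 to 549 CPM in untreated tumors, and its log2 difference with ADI-PEG20 was -0.36 (SE 0.36, limma adjusted p = 0.784). Adm, the vasodilator adrenomedullin, was at 3.08, 34.3 and 3.57 CPM in untreated and 13.3, 5.48 and 14.3 CPM with both drugs. Its 17.9-fold range over the 12 tumors was the widest of any member, and its differences from untreated carried an SE of 0.82.

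Both drugs were also set against each drug alone. Relative to ADI-PEG20, 32 of the 37 members had a higher mean (51.1% of all genes did), with a median log2 difference of 0.22 against 0.01 over all genes. Slc2a3, P4ha1 and Kdm3a were separate and higher, as were 4.7% of all genes, and 0 separate and lower (4.47%), while 2 members had an unadjusted p under 0.05, Kdm3a and Slc2a3 (1.41% of all genes higher, 2.01% lower). This count of 2 was 0 without ADI-PEG20 1 or without both drugs 3, 1 without ADI-PEG20 2 or without both drugs 2, 5 without ADI-PEG20 3, 6 without both drugs 1, and 0 without both libraries rich in Gm26917. It was 2 with voom and 4 with quantile normalization. P4ha1 differed by 0.41 (SE 0.19), Ndrg1 by 0.44 (SE 0.23) and Bnip3 by 0.70 (SE 0.38), each with a limma adjusted p of 0.894. The median without both drugs 3 was 0.15.

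Relative to chloroquine, 26 of 37 had a higher mean with both drugs (51.4% of all genes did), with a median log2 difference of 0.16 against 0.01 over all genes. Slc2a3 was the single member separate and higher (8.78% of all genes, with 9.57% separate and lower) and the single one with an unadjusted p under 0.05 (3.11% of all genes higher, 3.67% lower), in limma as in voom. The count was 2 without untreated 2, without chloroquine 2, without both drugs 1 or without both libraries rich in Gm26917. It was also 2 with quality weights, with only the groups compared and in the authors' deposited table. Differences were 0.97 for Ankrd37 (SE 0.53, limma adjusted p = 0.771), 1.31 for Adm (SE 0.82, limma adjusted p = 0.801) and 0.28 for Hif1a (SE 0.19, limma adjusted p = 0.822). For Gapdh it was 0.29 (SE 0.20, limma adjusted p = 0.827) and for Pdk1 0.35 (SE 0.26, limma adjusted p = 0.838). The median was 0.04 without chloroquine 1, 0.08 without both drugs 3 and 0.25 without chloroquine 2.

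The interaction asks whether the effect of ADI-PEG20 differed with chloroquine present, and equals that effect with chloroquine minus the effect without. It was above 0 for 36 of the 37 members, against 50.4% of all genes, with a median of 0.56 against 0.00 on the log2 scale. The member median with both drugs (-0.29 from untreated) was no lower than that with ADI-PEG20 (-0.44) or chloroquine (-0.39) alone, and the same untreated libraries enter all of these values. The values were 0.97 for P4ha1 (SE 0.27, unadjusted p = 0.00337), 1.44 for Bnip3 (SE 0.53), 0.87 for Ndrg1 (SE 0.32), 0.77 for Kdm3a (SE 0.31), 0.53 for Bnip3l (SE 0.21) and 1.28 for Slc2a1 (SE 0.52), each with a limma adjusted p of 0.825. The single member below 0 was Pfkfb4, at -0.32 (SE 0.29).

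At an unadjusted p under 0.05, 9 members had an interaction above 0 and 0 below, against 1.9% and 2.36% of all genes. This count was 20 without untreated 3, 15 without chloroquine 2, 5 without untreated 2, 5 without both drugs 2, 3 without both drugs 3 and 1 without chloroquine 1. It was 1 without both libraries rich in Gm26917, and 9 with voom. No direction of the median changed in any of these fits, the range over single libraries left out being 0.46 to 0.77.

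Averaged over the presence of chloroquine, ADI-PEG20 left 28 of 37 members lower (50.7% of all genes), with a median log2 difference of -0.14. Members with an unadjusted p under 0.05 were P4ha2 (-0.47, SE 0.13), Ndrg1 (-0.49, SE 0.16), Ldha (-0.39, SE 0.15), Pgam1 (-0.32, SE 0.12) and Plod2 (-0.47, SE 0.19), all lower, against 4.38% of all genes lower and 5.42% higher. Their limma adjusted p was 0.248, 0.327, 0.387, 0.404 and 0.422. Kdm3a came next, at -0.33 (SE 0.15, limma adjusted p = 0.512), and 0 of the 37 were separate between the 6 tumors with and the 6 without ADI-PEG20 (0.245% of all genes were separate and lower and 0.441% higher). The count of 5 was 13 without untreated 3, 8 without chloroquine 1, 3 without untreated 1 and 2 without chloroquine 2. The median was -0.24 without untreated 3, -0.22 without chloroquine 1, -0.09 without chloroquine 2 or 3, -0.08 without both libraries rich in Gm26917 and -0.06 with quality weights.

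Averaged over ADI-PEG20, chloroquine left 25 of 37 lower (48.1% of all genes), with a median of -0.07 and 0 members at an unadjusted p under 0.05 (1.22% of all genes lower, 1.01% higher), in limma and in voom. Between the 6 libraries with and the 6 without chloroquine 0 members were separate, against 0.0306% of all genes lower and 0.0184% higher. Egln1 came nearest, at -0.30 (SE 0.15), followed by Aldoc at -0.56 (SE 0.32), Kdm3a at 0.24 (SE 0.15), Hk1 at -0.21 (SE 0.14), Aldoa at -0.23 (SE 0.16) and Ankrd37 at -0.48 (SE 0.38), each with a limma adjusted p of 0.9997. Under 0.05 unadjusted, 4 members were lower without untreated 3 and 1 without chloroquine 2 or ADI-PEG20 2. The median was -0.15 without untreated 3, -0.13 without chloroquine 2, -0.11 without both drugs 3 and -0.10 without ADI-PEG20 1. It was -0.03 without untreated 2 or both drugs 1 and -0.005 without chloroquine 1.

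Other genes of the 2 pathways were read from lists of 40 glycolysis genes (isoforms, pyruvate dehydrogenase and the pentose phosphate branch) and 58 hypoxia response genes. With ADI-PEG20 the other glycolysis genes had a median log2 difference of 0.07, with 14 of 40 lower, and 4 lower and 0 higher at an unadjusted p under 0.05. Of all genes 51.3% were lower, with 3.13% lower and 5.17% higher at that level. The lowest p values went to Pdhb (-0.47, SE 0.19), a pyruvate dehydrogenase subunit, and Eno3 (-0.70, SE 0.30), the muscle enolase, among lower genes. Among higher ones they went to Hk3 (0.56, SE 0.27), a hexokinase of white blood cells, and Ldhd (0.71, SE 0.36), the dehydrogenase of D-lactate. The mean of Hk3 was 10.9 CPM without treatment, 15.2 with chloroquine, 16.2 with ADI-PEG20 and 15.0 CPM with both drugs. Summed macrophage markers overlapped between untreated and chloroquine tumors and were above untreated with ADI-PEG20 and with both drugs. The part of macrophages in the Hk3 values was not tested.

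The other hypoxia response genes had a median of -0.26 with ADI-PEG20, with 43 of 58 lower (51.3% of all genes were). At an unadjusted p under 0.05, 6 were lower and 2 higher, against 3.13% and 5.17% of all genes. Stc1, a secreted glycoprotein, had a mean of 54.5 CPM without treatment and 31.4 CPM with ADI-PEG20 (-0.85, SE 0.26, limma adjusted p = 0.519), and Tmem45a differed by -1.23 (SE 0.46). The higher ones were Rassf2 (0.76, SE 0.24) and Selenbp1 (1.13, SE 0.45). With chloroquine the medians were -0.07 (25 of 40 lower, 0 at an unadjusted p under 0.05) for glycolysis and -0.16 (36 of 58 lower, 3 lower and 1 higher at that level) for hypoxia response. In this contrast 50.7% of all genes were lower, with 1.33% lower and 2.06% higher at that level. Cited2, an inhibitor of HIF, differed by -0.73 (SE 0.26), Stc1 by -0.60 (SE 0.26), Rassf2 by 0.53 (SE 0.24) and Arnt2, a partner of HIF, by 0.55 (SE 0.32). On the glycolysis side the values were -0.30 for Dlat (SE 0.16), -0.29 for Pdhb (SE 0.19), 0.28 for Minpp1 (SE 0.15) and 0.75 for Slc2a6 (SE 0.37).

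With both drugs the median was 0.01 for other glycolysis genes (19 of 40 lower, 1 lower and 3 higher at an unadjusted p under 0.05) and -0.16 for other hypoxia response genes (42 of 58 lower, 1 lower and 3 higher). Here 49.2% of all genes were lower, with 3.95% lower and 4.7% higher at that level. Pgam2 (-1.51, SE 0.67) and Pfkm (-0.62, SE 0.29), both muscle isoforms, were the lower glycolysis genes, and both belong to the muscle marker list, as does Eno3. Without these 3 isoforms the other 14 muscle markers summed to 69.2 to 124.8 CPM with both drugs against 70.2, 754 and 2195 CPM in untreated tumors, and the part of muscle was not tested. Slc16a7, a transporter of pyruvate and lactate, differed by 1.27 (SE 0.43) and Pfkfb2 by 0.85 (SE 0.33). Among hypoxia response genes Insig2 (-0.49, SE 0.19) and Bhlhe41 (-0.61, SE 0.29) were lower and Cp, the copper ferroxidase ceruloplasmin (0.97, SE 0.34), and Nt5e, the adenosine-forming ectoenzyme (0.99, SE 0.35), higher. None of these passed in limma, the lowest adjusted p being 0.465 for Slc16a7.

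The authors' deposited table of 246 KEGG sets gives a one-sided p-value per set. Its glycolysis set (48 genes, 15 of them members) stood on the lower side with an adjusted p of 0.814 for ADI-PEG20, 0.734 for chloroquine and 1 for both drugs. The HIF-1 signaling set in the authors' deposited table (98 genes, 18 of them members) was also on the lower side, with an adjusted p of 0.568, 0.734 and 1 in the same order.

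Several members have processed copies elsewhere in the genome, and how reads that fit both were counted is not given in the sources used here. The copies present in the table, of Gapdh, Ldha, Pgam1, Pgk1, Bnip3l, Eno1 and Aldoa, were at 0.0962% to 3.86% of the member's own mean CPM.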

How the data were processed

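RNA of 12 frozen tumors was sequenced after depletion of ribosomal RNA, per the labels' protocols. The submitters' processing notes list, with no role or order, Salmon 0.8.2, STAR 2.5.1a and featureCounts 1.4.6-p5 (of Subread), the packages limma and edgeR, bcl2fastq, and build mm10. The authors deposited 1 table of log2 values per gene and library. Its values fit log2 CPM with a prior of 0.5 reads: 100% of those under 2000 reads came out within 0.02 of a whole read. Of 16386 lines 51 repeat an ID and were dropped, the earliest being kept (Gapdh is among the IDs repeated), which left 16335 genes. The authors deposited tables of log2 fold changes and p-values and of KEGG sets, whose test statistic is used as a deposited score for its sign only.

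Groups came from the labels. Limma 3.58.1 (R 4.3.3) was fitted with a mean trend to the log2 CPM of all genes, with no replicate block, and tested on simulated data. Plain CPM were computed from the log2 values, and gene coordinates are those of GRCm38 (GENCODE). Recovered reads per library ran from 15501998 to 28410940. The deposited CPM rest on effective library sizes, inferred from the values, that differ from these totals. They ran from 12590136 (ADI-PEG20 1, 16188928 reads) to 31280298 (ADI-PEG20 2, 28410940 reads), so 1 read was worth 0.0320 to 0.0794 CPM. In untreated 2 the effective size was 16290219 for 18371876 reads. Full statistics went to the 6 members with the smallest p in each contrast, values per library to members whose groups did not overlap and to those compared within a role, and ranges to the rest. Of other pathway genes, the 2 lower and 2 higher with the smallest p in each list were named. Alternatives were voom on recovered reads (with and without library quality weights), quantile and median-of-ratios scaling, log2(CPM + 1), a filter at a mean log2 CPM of 1, only the groups compared, a replicate block, each library left out, and the authors' table. Leaving out both libraries rich in Gm26917 was chosen after seeing the data. Members and lists were chosen with earlier results of these data known. Replicate numbers, which the labels tie to no shared animal or day, were taken to pair libraries only where all 3 same-numbered pairs of 2 groups had correlated deviations over 0.1. This held for chloroquine and both drugs (0.11 to 0.153), where the replicate block left 0 genes called and 1 member with an unadjusted p under 0.05, as without it. It did not hold for the other 5 pairs of groups. Within each group the sample number in the labels rises with the replicate number, and what it orders is not given.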

Additional observations from a re-analysis of the deposited data

How the results depend on the processing

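No member passed adjustment under any alternative, and none of the 48 member differences with full statistics changed direction or side of the threshold. The member median kept its sign in each contrast and alternative run (the authors' table and the fit of only the groups compared do not cover the averaged contrasts and the interaction). With ADI-PEG20 against untreated it ran from -0.705 to -0.346 with 1 library left out, and the genes called from 0 to 1, that 1 being called without untreated 3. For both drugs against untreated, limma called 0 genes, 8 with the replicate block and 17 without both libraries rich in Gm26917. For both drugs against chloroquine it called 0, 1 with library quality weights or in the authors' deposited table, 72 with only the groups compared, 0 to 1 with 1 library left out and 22 without both libraries rich in Gm26917. For ADI-PEG20 averaged over chloroquine it called 0, 47 with quality weights, 31 with the replicate block, 0 to 19 with 1 library left out and 144 without both libraries rich in Gm26917. The cause was not tested. The block left every member median as it was (-0.443 with ADI-PEG20). It moved members with an unadjusted p under 0.05 from 4 to 9 lower with chloroquine and from 2 to 4 higher for both drugs against ADI-PEG20. For the interaction they went from 9 to 13. Against untreated they went from 15 to 16 lower and from 0 to 1 higher with ADI-PEG20. With both drugs against untreated they went from 5 to 4 lower and from 0 to 1 higher. Same-numbered libraries correlated in their deviations with a median of 0.097 (9 of 18 pairs over 0.1), different-numbered ones with -0.04 (3 of 36 over 0.1). Deviations within a group sum to 0, so these 2 medians are not independent. The own number was the highest in 24 of 36 comparisons of a library with another group, in which 1 of 3 libraries carries that number. It was so in every other group for 3 of 12 libraries. With 3 libraries per group no member difference stood out from the spread between libraries after adjustment. Aldoc and Ankrd37 rested on the fewest reads.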
